A study of Rattus norvegicus with 2 samples.

Results

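A set of 6 transcripts of the cardiac Z-disc and of its links to the cell was described in the hearts of Dahl salt-sensitive rats. They encode the LIM proteins Csrp2, Csrp3 and Ldb3, the stretch-responsive ankyrin repeat protein Ankrd1, the titin cap Tcap and the intermediate filament protein desmin (Des). The genes were selected from earlier results on the same arrays, by name and with their high-salt and low-salt values in view, so the ratios below describe them and test nothing. The 6 genes were read by 8 probe sets, out of 4736 named genes and 8740 probe sets other than controls. The high-salt array held heart RNA from the male sex of this strain at 17 weeks, on a high-salt diet and labelled as having chronic heart failure. The low-salt array held heart RNA of the same strain, sex and age on a low-salt diet, for which no condition is labelled. The strain is inbred and develops hypertension when it is fed salt. The labels do not say whether each RNA was from 1 animal or a pool, or from which chamber. Each diet had 1 array, so there was no spread between replicates and no p-value, and a difference holds for this pair of arrays alone.

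The Z-disc anchors the thin filaments of neighbouring sarcomeres and the end of titin, and it is one of the places where a muscle cell is thought to sense stretch. LIM domains are paired zinc fingers that bind other proteins, and several LIM proteins of muscle are found both at the Z-disc and in the nucleus. Ankrd1 binds titin in the I-band and also acts in the nucleus, and its RNA is a known marker of cardiac stress. Desmin filaments tie Z-discs to each other, to the membrane and to the nucleus. Mutations in human CSRP3, LDB3, TCAP and DES are known in inherited cardiomyopathy.

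Promoter sequence was available for Csrp2, Des and Ldb3, taken from RefSeq on build GRCr8, and all 3 are shown. Each line gives the 250 bases before the annotated start, read 5′ to 3′ on the strand of the gene: chr7:48235165-48235414 on the plus strand for Csrp2, chr9:84299376-84299625 on the plus strand for Des and chr16:9924680-9924929 on the minus strand for Ldb3. Capitals mark matches on either strand to 5 motifs, namely the CArG box and the MEF2 site (both by name), M-CAT (CATTCC), the E-box (CANNTG) and the GC box (GGGCGG). No match overlapped another.
Csrp2: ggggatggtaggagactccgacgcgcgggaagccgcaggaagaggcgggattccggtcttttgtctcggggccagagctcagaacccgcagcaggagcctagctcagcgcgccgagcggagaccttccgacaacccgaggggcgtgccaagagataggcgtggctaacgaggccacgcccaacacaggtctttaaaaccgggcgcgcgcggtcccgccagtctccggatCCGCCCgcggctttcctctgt
Des: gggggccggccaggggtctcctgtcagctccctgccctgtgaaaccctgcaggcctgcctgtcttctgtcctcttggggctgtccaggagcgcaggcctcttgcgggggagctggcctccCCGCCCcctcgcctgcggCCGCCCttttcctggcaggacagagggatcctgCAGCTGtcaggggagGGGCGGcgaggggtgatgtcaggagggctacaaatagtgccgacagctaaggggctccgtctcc
Ldb3: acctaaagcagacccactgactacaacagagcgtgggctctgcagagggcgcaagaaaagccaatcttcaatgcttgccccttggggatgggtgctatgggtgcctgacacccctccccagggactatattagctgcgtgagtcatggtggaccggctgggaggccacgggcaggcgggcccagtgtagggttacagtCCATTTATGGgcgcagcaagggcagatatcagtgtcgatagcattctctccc

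The Csrp2 window held 1 GC box, at 21 to 16 bases before the start. The Des window held 3 GC boxes, at 130 to 125, 112 to 107 and 64 to 59 bases before the start, and 1 E-box at 79 to 74 bases before it. The Ldb3 window held 1 CArG box, the binding motif of serum response factor, at 52 to 43 bases before the start. Neither the MEF2 site nor M-CAT matched in these 3 windows. Among the windows of 33469 annotated promoters, 1.5% held a CArG box, 2.96% a MEF2 site, 12.1% M-CAT, 65.5% an E-box and 30.5% a GC box. No window was available for Csrp3, Ankrd1 and Tcap, and for Ldb3, with 16 RefSeq transcripts, a single start was read. A link between a motif and the direction of a ratio was not tested. These are letters in a window and say nothing of binding.

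On both arrays the 2% trimmed mean intensity was close to 100.2, so the values were compared as deposited. A noise floor of 126.4 was set from the size of the values below 0, and a reading under it was taken as not well above background. On the high-salt array 20.0% of probe sets reached that floor, against 20.3% on the low-salt array. Both values were raised to the floor before the log2 ratio was taken, and a ratio with 1 value under it is a bound. Probe sets of the same gene that reached the floor on both arrays gave log2 ratios with a pooled SD of 0.22 (231 genes), which serves here as the error of a log2 ratio and holds no variation between animals. The 6 control probe sets along beta-actin and GAPDH had high-salt over low-salt ratios from 0.934 to 1.17, with 1.17 at the 3′ and 1.11 at the 5′ end of beta-actin and 1.03 at the 3′ and 0.968 at the 5′ end of GAPDH.

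Csrp2 and Csrp3 passed 2-fold among the 6 genes, so that 2 were higher under high salt, none was lower and 4 did not reach 2-fold either way, each in its brightest probe set. Over all 1216 genes that reached the noise floor on an array, 3.54% were at least 2-fold higher and 1.89% at least 2-fold lower. At 1.5-fold the members numbered 2 higher and 1 lower (Ldb3), where 9.29% of all genes were higher and 9.46% lower. At 3-fold, Csrp2 was the one member higher, where 1.15% of all genes were higher and 0.164% lower. A ratio above 1 was found for 4 members, and for 45.4% of all genes. Because the members were selected on this contrast, nothing is read from these counts. The median log2 ratio was 0.52 over the members and -0.045 over all genes. In heart tissue of mixed cell types, fewer cells of a type and less RNA per cell cannot be told apart.

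**Figure D1:**
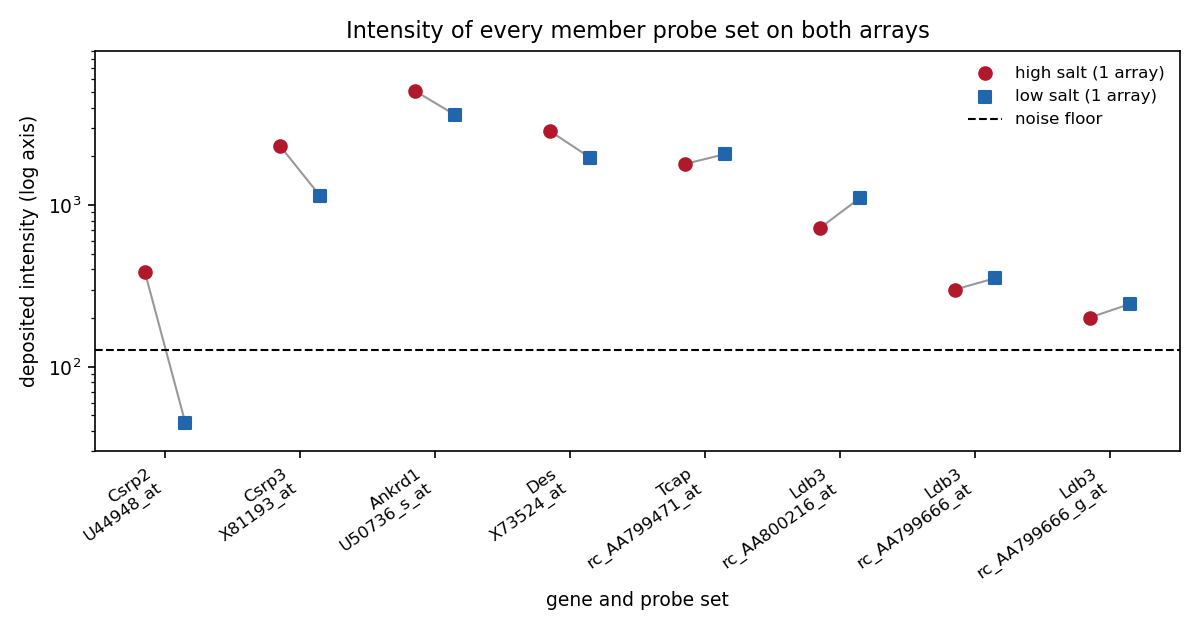
Deposited intensity (log axis) of the 8 probe sets of the 6 genes, with the high-salt array as circles on the left and the low-salt array as squares on the right of each pair, and the noise floor of 126.4 as a dashed line. Csrp2, Csrp3, Ankrd1 and Des were higher on the high-salt array, Tcap and the 3 Ldb3 probe sets were lower, and the low-salt value of Csrp2 was the one value under the floor.

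The LIM-only proteins Csrp2 and Csrp3 had the largest ratios of the 6 members. Csrp2, a protein with a pair of LIM domains that is known best from vascular smooth muscle, had an intensity of 387.9 under high salt and 45.2 under low salt (U44948_at). The high-salt reading was clearly above the noise floor and the low-salt reading was under it, so Csrp2 was at least 3.07-fold higher, a log2 ratio of at least 1.62. Counting Csrp2 itself, 13 of the 1216 genes (1.07%) had a ratio that large. The size of the bound is set by the floor: it was 1.43-fold with the floor at the 99th percentile of the values below 0 in place of the 95th, and 4.57-fold at the 90th.

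Csrp3, the muscle LIM protein, which binds Tcap and alpha-actinin at the Z-disc of striated muscle, had an intensity of 2331.6 under high salt and 1135.3 under low salt (X81193_at). Both values lay far above the noise floor, and the difference of 1196.3 was 9.46 times that floor. Csrp3 was 2.05-fold higher (log2 ratio 1.04), a shift 4.67 times the SD among probe sets of a gene. It sat at the edge of the 2-fold threshold, with a log2 ratio of 0.99 after quantile normalization. Of the 1216 genes, 39 (3.21%) had a ratio as large. Csrp1, the third protein of this family and mainly a smooth muscle gene, read 167.0 under high salt and 143.5 under low salt, a log2 ratio of 0.22, which is no larger than the SD. Both Csrp1 readings lay close above the noise floor of 126.4, and the Csrp2 bound is set by that floor. On these readings the family ratios ran from 1.16-fold for Csrp1 to at least 3.07-fold for Csrp2.

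Ankrd1 and Des were moderately higher, by nearly the same ratio. Ankrd1 had an intensity of 5086.3 under high salt and 3604.8 under low salt (U50736_s_at), a 1.41-fold difference with a log2 ratio of 0.50. The suffix of its probe set marks a design that may also match related transcripts. Des had an intensity of 2870.1 under high salt and 1961.6 under low salt (X73524_at), a 1.46-fold difference with a log2 ratio of 0.55. For both genes the shift was more than the SD of 0.22, by 2.23 times for Ankrd1 and 2.47 times for Des. Ratios at least as large were common, in 149 genes (12.3%) for Ankrd1 and 126 genes (10.4%) for Des. The log2 ratios of Ankrd1 and Des differed by -0.052 (Ankrd1 minus Des), within the error of 0.31 for a difference between 2 genes.

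Ldb3 was lower in the high-salt heart, and Tcap differed by less than the error of a ratio. Tcap, also called telethonin, caps the Z-disc end of titin and had an intensity of 1794.8 under high salt and 2068.3 under low salt (rc_AA799471_at). The log2 ratio of -0.20 was smaller in size than the SD among probe sets, and 388 genes (31.9%) were as low or lower.

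Ldb3, also called ZASP or Cypher, is a PDZ and LIM protein that binds alpha-actinin and holds the Z-disc together under load. It was the one member with several probe sets. Its brightest, rc_AA800216_at, had an intensity of 720.6 under high salt and 1112.1 under low salt, a 1.54-fold lower level with a log2 ratio of -0.63, and 92 genes (7.57%) were as low or lower. The other probe sets carry the name of a single expressed sequence tag and so are not independent of each other. Of these, rc_AA799666_at read 300.3 under high salt and 353.3 under low salt (log2 ratio -0.23), and rc_AA799666_g_at read 201.7 under high salt and 245.1 under low salt (log2 ratio -0.28). All 3 Ldb3 probe sets were lower in the high-salt heart, but their log2 ratios had an SD of 0.21 (n = 3 probe sets), and in the dimmer 2 the difference between arrays was 0.419 and 0.343 times the noise floor. RefSeq lists 16 Ldb3 transcripts and 1 for each other member, and which of the 16 each probe set reads was not analysed here.

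The members differed in ratio on these arrays. Of the 15 pairs of members, 14 had log2 ratios further apart than the error of 0.31. With Csrp2 taken at its bound, 10 were further apart than double that error. The pairs reuse the same members, which were selected with these values in view, and the error holds no variation between animals. The share of such pairs among all genes was not computed, so nothing is read from counts of pairs. Csrp3 stood 1.24 above its binding partner Tcap on the log2 scale. Csrp3 and Des stood 1.66 and 1.18 above Ldb3 in its brightest probe set, and 1.32 and 0.83 above it with the median of its 3 probe sets. The difference of Ldb3 minus Tcap was -0.42 in the brightest Ldb3 probe set, but with the median of the Ldb3 probe sets Tcap was 0.077 above Ldb3, within the error, and 13 of the 15 pairs were then further apart than the error.

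Structural genes around the members were compared by the same rule, from lists drawn up with earlier results of these arrays known. Of 71 Z-disc and LIM genes listed, 27 were on the array by name, 16 reached the noise floor and none was 2-fold higher or lower. A ratio above 1 was found for 9 of these and below 1 for 7, and their median log2 ratio was 0.084 (quartiles -0.095 and 0.23). Alpha-actinin, Actn2, the main cross-linker of the Z-disc, read 1762.7 under high salt and 1852.2 under low salt. The LIM-only protein Fhl2, which binds titin and is high in heart, read 2409.1 under high salt and 3308.8 under low salt, a log2 ratio of -0.46. Crip2, a further LIM protein, read 2554.1 under high salt and 2510.0 under low salt. Beside the higher Csrp3, these LIM proteins thus included one with a lower and one with a level reading.

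Of the chaperones that protect Z-disc filaments, Cryab read 5545.2 under high salt and 4981.0 under low salt, and Hspb1 read 2037.2 under high salt and 1685.1 under low salt, with log2 ratios from -0.41 to 0.54 over the 4 Hspb1 probe sets. Trim54, a muscle RING finger protein, read 1585.7 under high salt and 1018.3 under low salt (log2 ratio 0.64). Further genes of this list were picked after their values were seen. Flnc, the muscle filamin that binds the Z-disc and the membrane, read 454.7 under high salt and 229.7 under low salt, 1.98-fold higher, and its other probe set had a log2 ratio of 1.21. Trim63, a ubiquitin ligase of muscle wasting from the same family as Trim54, went the other way with 173.5 under high salt and 262.5 under low salt (log2 ratio -0.60). That reading is from 1 measured of the 2 Trim63 probe sets. By their suffix, the probe sets read for Trim63, Cryab and Hspb1 may also match related transcripts. Pdlim5, a PDZ and LIM protein related to Ldb3, read 180.3 under high salt and 33.8 under low salt and was at least 1.43-fold higher. Pdlim3 of that family read 242.7 under high salt and 249.7 under low salt.

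**Figure D2:**
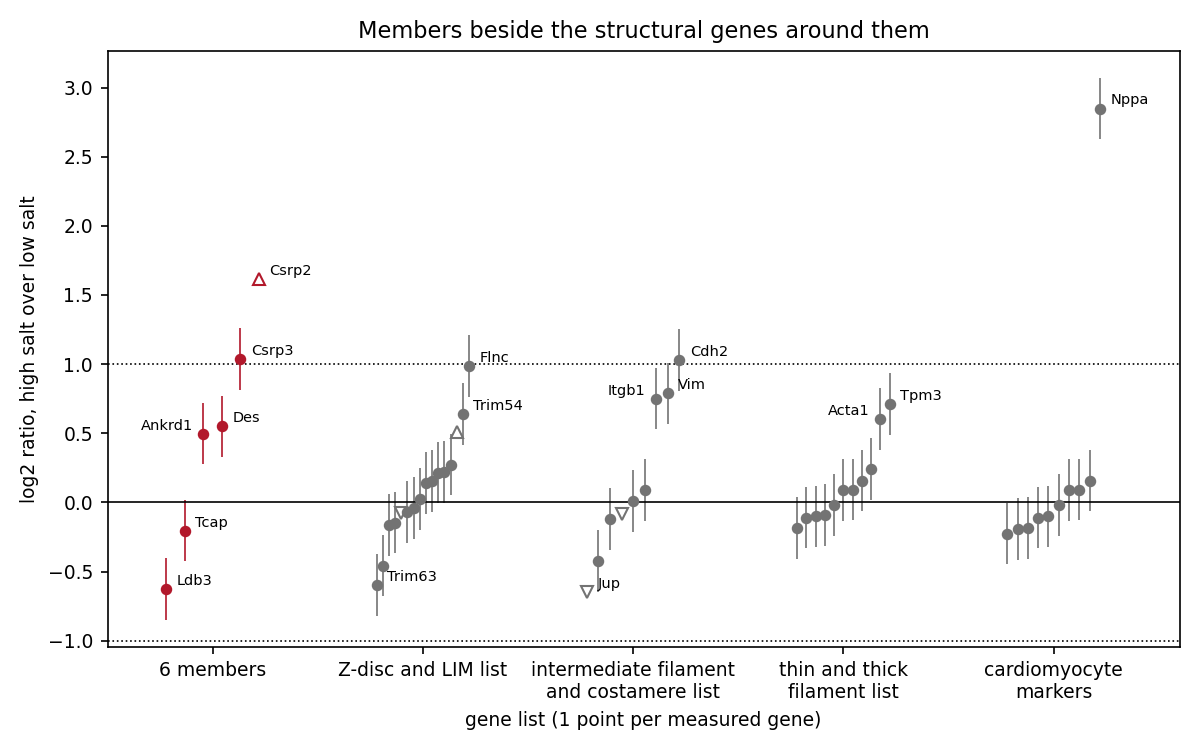
High-salt over low-salt log2 ratio for the 6 members and for each measured gene of 4 lists, in its brightest probe set; bars are the pooled SD of 0.22 among probe sets of a gene, open triangles are bounds without a bar, pointing the way the bound runs, and dotted lines mark 2-fold. The members spread from -0.63 (Ldb3) to at least 1.62 (Csrp2), and the cardiomyocyte markers from -0.23 (Pln) to 2.85 (Nppa).

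Of 35 genes of intermediate filaments, costameres and cell junctions that connect to desmin and the Z-disc, 17 were on the array and 9 measured, of which 1 passed 2-fold upwards, none downwards and 8 in neither direction. Their median log2 ratio was 0.0087. Cdh2, the N-cadherin of the intercalated disc, was the higher one with 346.7 under high salt and 169.6 under low salt (2.04-fold), and its other probe set had a log2 ratio of 1.27. With the noise floor at the 99th percentile it no longer reached 2-fold, and the count was 0. Vim, the intermediate filament protein of mesenchymal cells, read 975.5 under high salt and 564.8 under low salt, and the integrin subunit Itgb1 read 876.1 under high salt and 521.0 under low salt (log2 ratios 0.79 and 0.75). The laminin-binding integrin subunit of muscle, Itga7, read 476.9 under high salt and 639.5 under low salt. The 3 Itga7 probe sets had log2 ratios from -0.87 to -0.22. Plec, which links desmin to the Z-disc, was level at 618.9 under high salt and 615.2 under low salt. Lmna was level too (336.0 under high salt and 315.4 under low salt). Cav3 read 403.6 under high salt and 438.9 under low salt in its brightest probe set. The 3 Cav3 probe sets had log2 ratios from -0.12 to 0.33. The ratio of Des was thus nearer to that of Vim than to that of its linker Plec.

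Genes of the contractile filaments stayed within 2-fold in their brightest probe sets, though not in every probe set. Of 15 genes of the thin and thick filaments on the array, 11 were measured and none was 2-fold higher or lower, with log2 ratios from -0.19 to 0.71. Tpm3, a cytoskeletal and slow muscle tropomyosin, and Acta1, skeletal alpha-actin, both picked after their values were seen, were the highest at 1.64-fold and 1.52-fold. The Tpm3 value is from 1 measured of its 5 probe sets. By their suffix, the brightest probe sets of Tpm3, Myh6, Myh7, Actc1 and Tpm1 may also match related transcripts. Over all measured probe sets the log2 ratios ran from 0.091 to 1.05 for Myh7, from -0.94 to -0.10 for Myh6 and from -0.48 to -0.19 for Tnni3. Actc1 read 8364.9 under high salt and 7848.9 under low salt, Myl2 read 7677.8 under high salt and 6884.4 under low salt, Myh7 read 6372.0 under high salt and 5980.7 under low salt, Tnni3 read 5503.1 under high salt and 6264.6 under low salt, and Tpm1 read 5757.0 under high salt and 6140.5 under low salt. Of the titin and M-band list, 1 of 7 genes on the array was measured, the creatine kinase Ckm, with 3062.3 under high salt and 4279.7 under low salt. The single Ttn probe set gave -63.5 under high salt and -62.3 under low salt, not well above background, so titin, to which Tcap, Ankrd1 and Fhl2 bind, has no ratio here.

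Cell type markers were read beside the members. Of 11 cardiomyocyte markers on the array, 10 were measured with a median log2 ratio of -0.061, running from -0.23 for Pln to 2.85 for Nppa, the natriuretic peptide gene, with 0.16 for Myl2 as the next highest, each in its brightest probe set. Over the 17 measured probe sets of the markers other than Nppa the log2 ratios ran from -0.94 to 1.05, which spans Csrp3, Ankrd1, Des, Tcap and Ldb3. The low end was a probe set of Myh6 and the high end a probe set of Myh7. The other markers lay between -0.48 (Tnni3) and 0.16 (Myl2). By brightest probe set, 4 members lay above the range of the 9 markers other than Nppa, 1 below and 1 within. The members were selected on this contrast. Some genes are in more than one list: 7 cardiomyocyte markers recur in the filament list, and Csrp1, Tpm2 and Vim recur as smooth muscle or fibroblast markers. The heart label held: Actc1, Myl2, Myl3 (5966.2 under high salt and 6046.3 under low salt) and Tnnt2 (5576.1 under high salt and 6017.5 under low salt) were bright on both arrays. Skeletal muscle markers were under the noise floor for 8 of 9 genes, the exception being Myh1 with 285.8 under high salt and 345.0 under low salt.

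Csrp2 and Des are also expressed in smooth muscle. Of 8 smooth muscle markers on the array, 3 reached the noise floor and none of these was 2-fold higher or lower. The summed intensity over all 8, including those under the floor, was 855.2 under high salt and 639.8 under low salt. Over the 3 measured it was 759.7 under high salt and 599.7 under low salt. Acta2 read 378.5 under high salt and 314.6 under low salt. By its suffix, the Acta2 probe set may also match related transcripts. Myl9 read 214.2 under high salt and 141.6 under low salt (log2 ratio 0.60), and its other probe set had a log2 ratio of 0.17. The defining markers Myh11 (4.9 under high salt and 7.2 under low salt) and Cnn1 (8.3 under high salt and -10.0 under low salt) were near 0. For fibroblasts, 9 of 11 markers were measured, 1 was at least 2-fold higher (S100a4) and the sum over the list was 5273.2 under high salt and 4087.1 under low salt. By brightest probe set, fibroblast log2 ratios were 1.87 or more for S100a4, 0.79 for Vim, 0.60 for Col1a2 and 0.51 for Col1a1. They were 0.40 or more for Postn, -0.081 for Dcn, -0.14 for Col3a1, -0.18 for Pdgfra and -0.44 or less for Lum. Over all measured probe sets, Col1a1 ran from 0.12 to 0.83, Dcn from -0.35 to -0.079 and Col3a1 from -0.43 to -0.14. By their suffix, the probe sets read for Col1a1, Col1a2, Col3a1 and Dcn may also match related transcripts. All 3 red blood cell markers (Hbb, Alas2 and Slc4a1) passed 2-fold upwards in their brightest probe sets. The Alas2 and Slc4a1 ratios are bounds, as their low-salt readings were under the noise floor. A second Slc4a1 probe set had a log2 ratio of -0.055, and the count was 2 with the median of probe sets. The sum over the list was 7944.9 under high salt and 3134.8 under low salt. Of 9 leukocyte markers, 3 were measured, Lyz2 higher, Cd74 lower and Cd14 neither. The sums over all 9, including those under the floor, were 1289.4 under high salt and 1486.7 under low salt. Of 5 endothelial markers, Flt1 alone reached the floor, with 121.3 under high salt and 127.9 under low salt. The part of these cells in the ratios of Csrp2 and Des was not tested.

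Genes with the most similar ratio to each member were sought by the smallest difference in log2 ratio among the 958 genes that reached the noise floor on both arrays. For Csrp3 these were Cdh2 (1.03) and Ppp1ca (1.02), for Ankrd1 Emb (0.50) and Cd63 (0.50), and for Des Bcan (0.54) and Napa (0.56). For Ldb3 they were Pdk2 (-0.62) and Gas6 (-0.63), and for Tcap Actb (-0.20) and Phldb1 (-0.21). The Actb value is not shared by the control probe sets along beta-actin, whose high-salt over low-salt ratios ran from 1.01 to 1.17. None is given for Csrp2, whose value is a bound set by the floor. With 2 arrays this likeness is the ratio alone.

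**Figure D3:**
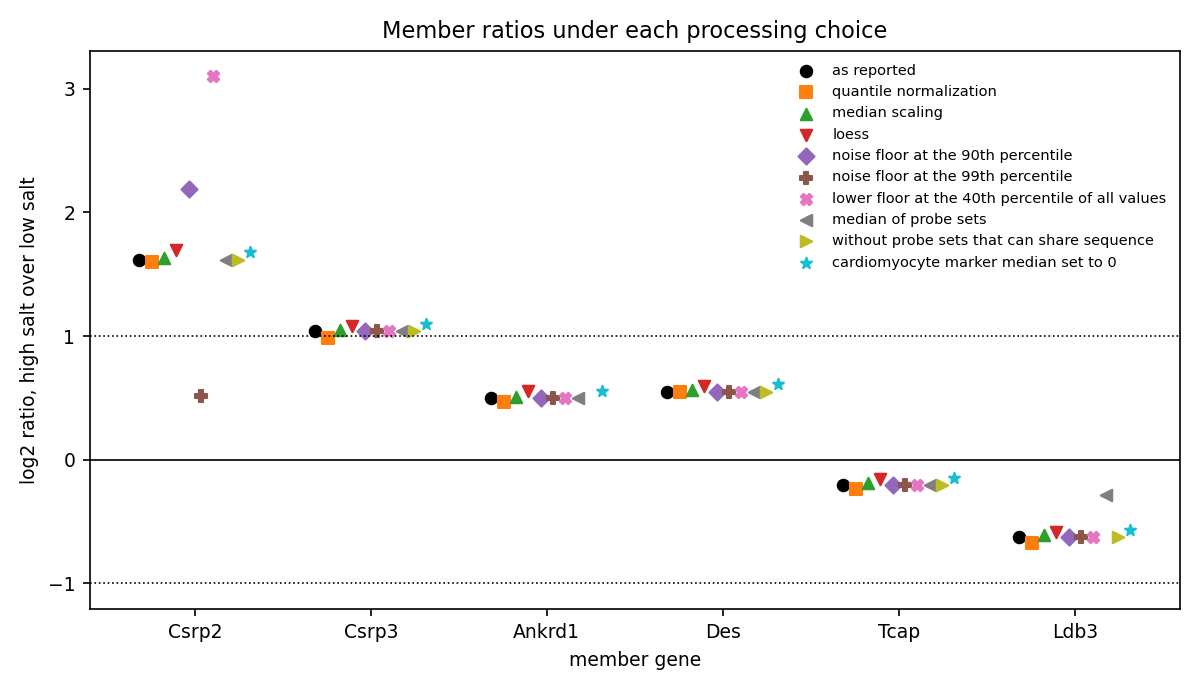
High-salt over low-salt log2 ratio for each member as reported (black circles) and under 9 alternative processing choices; dotted lines mark 2-fold. Directions did not change, though the floors and the median of probe sets could not alter Csrp3, Ankrd1, Des or Tcap. The Csrp2 value moved with the noise floor from 0.52 to 3.10 and Csrp3 stayed between 0.99 and 1.10. Ldb3 moved to -0.28 when its 3 probe sets were summarised by their median.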

How the data were processed

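Biotin-labelled cRNA was made from each heart RNA by in vitro transcription, per the labels' protocols. The authors deposited 1 linear intensity per probe set and array. The software behind these values is not given in the sources used here. Near-equal 2% trimmed means show that the arrays were scaled before deposit, and values below 0 remain.

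Members and gene lists were chosen with earlier results of these data known. Gene symbols came from the 2016 platform annotation: of 8740 probe sets, 7006 had 1 symbol, 308 several and 1426 none. Of the 7006, 6985 matched RefSeq by gene ID and no symbol changed. No probe set with several symbols named a member. Values were raised to a noise floor, which was the 95th percentile of the absolute values of readings below 0 (126.4), and log2 ratios of high salt over low salt were taken. A gene took its brightest probe set, and a gene under the floor on both arrays was not measured. No test was possible with 1 array per diet, whose number limits the precision. The ratio and quantile steps were checked on simulated arrays, with changes planted in bright probe sets only. That check did not cover changes in values under the floor, as for Csrp2, or the loess, list and promoter steps.

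Named genes were every member probe set, in each structural list the genes past 2-fold and up to 6 others with the highest intensity, measured markers, and the 2 genes nearest in ratio to each member except Csrp2, whose ratio is a bound. Of the red cell, leukocyte and cardiomyocyte markers some are given without values, and genes said to be picked after their values were seen lie outside this rule. Alternatives were quantile, median and loess (span 0.4) scaling, floors at the 90th (84.9) and 99th (271.2) percentile or at the 40th percentile of all values (10.9), the median of probe sets, probe sets that can share sequence left out, and 1.5-fold and 3-fold thresholds. Setting the cardiomyocyte marker median to 0 was added after seeing the data. The software was pandas 2.3.3 and numpy 2.4.6 under Python 3.11.15, with statsmodels 0.14.6 for loess, scipy 1.17.1 for trimmed means and matplotlib 3.10.9 for figures.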

Additional observations from a re-analysis of the deposited data

How the results depend on the processing

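The direction of each of the 6 members was kept under all 9 alternatives to scaling, floor and probe set choice, or 8 for Ankrd1. The single probe set of Ankrd1 is of a type that can share sequence and gave no value once those were left out. Csrp3, Ankrd1, Des and Tcap each had a single probe set above every floor, so the floors and the median of probe sets could not change their ratios. For these genes a kept direction is read from the scalings alone, and the reported Tcap ratio was below the SD of 0.22. Log2 ratios ran from 0.99 to 1.10 for Csrp3, from 0.47 to 0.56 for Ankrd1, from 0.55 to 0.61 for Des, from -0.24 to -0.14 for Tcap and from -0.67 to -0.28 for Ldb3. Csrp2 moved to 0.52 with the floor at the 99th percentile, to 2.19 at the 90th and to 3.10 at the lower floor of 10.9, because its bound is set by the floor wherever the floor exceeds the low-salt value of 45.2. Ldb3 moved to -0.28 with the median of its probe sets. The count of members at least 2-fold higher was 1 after quantile normalization (Csrp2), with the floor at the 99th percentile (Csrp3) and at 3-fold (Csrp2), and 2 otherwise. At 1.5-fold, 1 member was lower (Ldb3).

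In the Z-disc and LIM list, 2 genes were higher and 1 lower at 1.5-fold, and 1 was at least 2-fold higher after quantile normalization, loess, the median of probe sets or setting the cardiomyocyte marker median to 0 (Flnc in these 4), and with the floor at the 90th percentile or the lower floor of 10.9 (Pdlim5 in both). The cardiomyocyte median was 0.0012 after loess. The median of the thin and thick filament list was 0.091, and -0.0072 after quantile normalization and -0.019 without probe sets that can share sequence, so that list has no settled direction. The cause of these moves was not tested. Over all genes, 43 were 2-fold higher and 23 lower of 1216 as reported, and 252 and 251 of 3451 at the lower floor. Other floors gave 60 and 35 (90th percentile) and 24 and 9 (99th). Loess gave 51 and 17, and the cardiomyocyte marker scaling 51 and 15. No paired analysis was possible because each diet had 1 array. Values under the noise floor make the ratios of Csrp2, Pdlim5, Jup, Tln1 and Ppp3ca bounds and leave titin, among others, without a ratio. Among the markers, the ratios of S100a4, Postn, Lum, Flt1, Alas2 and Slc4a1 are bounds.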
